A study of Mus musculus with 10 samples.

Results

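JUN peaks called in cardiac fibroblasts treated with TGF-β, but not in cells that also received an siRNA to hexokinase 1 (HK1), are described here. They were chosen by the deposited peak marks and read counts of 2 CUT&Tag libraries, one made from cells treated with TGF-β (TGF) and one from cells that received both the siRNA and TGF-β (siHK1). A region was taken if it was marked as a peak in the TGF library, was not marked in the siHK1 library and held 50 or more TGF reads. Of 72990 regions listed for JUN, 27790 (38.1%) were marked in TGF alone and 3114 of these met the read limit (TGF-only regions below), while 21619 regions marked in both libraries with the same number of TGF reads (shared regions) serve as the contrast. The marks and reads of this pair of libraries therefore chose the regions, and every JUN read ratio below is a description and not a test.

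CUT&Tag uses an antibody to direct a transposase to chromatin, so that DNA near the bound protein is tagged and sequenced. The series holds 10 libraries of primary fibroblasts from mouse heart, with 1 library for each condition and antibody used here. A control library for H3K9 lactylation and 1 library whose labels give no antibody were not used. Besides JUN the antibodies used here were to SMAD3, NFATC2 and histone H3 lactylated at lysine 9 (H3K9lc). The cells of all 8 libraries used, with and without the siRNA, received TGF-β, and no JUN library of untreated cells was used here. No RNA or protein was measured in these libraries, so the knockdown was not checked, and with 1 library per condition each statement compares libraries and not conditions.

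c-JUN is the central subunit of AP-1, a dimer of JUN and FOS family proteins that binds the TGAGTCA element and responds to growth factor and stress kinases. In fibroblasts AP-1 occupies many enhancers and takes part in the response to TGF-β, whose receptors act through SMAD2, SMAD3 and SMAD4. SMAD3 and SMAD4 recognise the short CAGAC element, also read as GTCTG on the other strand, and JUN proteins can bind SMAD3. HK1 phosphorylates glucose in the first step of glycolysis, the pathway that yields the lactate used for histone lactylation.

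The TGF and siHK1 libraries held 4215447 and 2271336 reads over the listed JUN regions, which cover 37.7 Mb. Whole-library depths were not given in the files used, and siHK1 reads were multiplied by 1.86 so that both libraries held equal reads over these regions. A loss of JUN common to all regions cannot be seen on this scale. As a check of the cell type, 9 of 10 cardiac fibroblast markers had a JUN region at their promoter, with 1095 TGF and 575 siHK1 reads in all. Of 9 cardiomyocyte markers 2 had one (132 and 56 reads) and Myh7, Tnnt2, Actn2, Ttn, Nkx2-5, Ryr2 and Nppa had none, while 3 of 6 macrophage and leukocyte markers had one (316 and 182 reads). Of 7 endothelial markers 5 had one (177 and 98 reads), and of 5 smooth muscle and pericyte markers 2 had one (86 and 48 reads). These reads are JUN signal and not expression, and the part of other cell types in the results was not tested.

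To show the DNA behind the values, the central 200 bases of 7 TGF-only regions are printed from the plus strand of RefSeq GRCm38.p6. They were taken from the regions with the lowest ratio, from genes of the TGF-β and matrix lists, and from the regions with the most reads, leaving out any window that touches an annotated exon. They were chosen to show the elements and not as a sample: of the 8 regions with the lowest ratio, the 3 printed have 2 SMAD elements each, and the others have 0 or 1. Capitals mark the AP-1 element (TGAGTCA or TGACTCA) and the SMAD element (CAGAC or GTCTG). The first 4 came from regions with a log2 ratio of siHK1 over TGF reads of -1 or lower. The region assigned to Smad6 had the most SMAD elements of those shown. The last pair, assigned to Tnc and Gadd45g, kept close to the TGF level although the siHK1 peak mark was 0.
4930459C07Rik, chr10:96237853-96238052: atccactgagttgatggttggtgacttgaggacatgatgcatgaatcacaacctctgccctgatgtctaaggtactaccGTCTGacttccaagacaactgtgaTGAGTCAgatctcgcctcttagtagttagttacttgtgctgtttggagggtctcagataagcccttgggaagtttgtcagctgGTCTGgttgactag
4933427D06Rik, chr6:89011286-89011485: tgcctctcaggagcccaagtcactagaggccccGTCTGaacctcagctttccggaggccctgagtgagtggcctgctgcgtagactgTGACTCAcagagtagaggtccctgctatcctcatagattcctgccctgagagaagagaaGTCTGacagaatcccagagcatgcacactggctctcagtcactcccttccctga
BC006965, chr11:112682915-112683114: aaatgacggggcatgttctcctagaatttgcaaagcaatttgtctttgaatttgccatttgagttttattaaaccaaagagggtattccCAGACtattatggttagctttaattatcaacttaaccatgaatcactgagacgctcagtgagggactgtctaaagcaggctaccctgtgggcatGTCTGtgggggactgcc
Col5a1, chr2:27871047-27871246: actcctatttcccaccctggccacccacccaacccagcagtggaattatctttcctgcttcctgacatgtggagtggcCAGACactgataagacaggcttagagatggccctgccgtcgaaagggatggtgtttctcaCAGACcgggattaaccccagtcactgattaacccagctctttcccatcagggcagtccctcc
Smad6, chr9:64005158-64005357: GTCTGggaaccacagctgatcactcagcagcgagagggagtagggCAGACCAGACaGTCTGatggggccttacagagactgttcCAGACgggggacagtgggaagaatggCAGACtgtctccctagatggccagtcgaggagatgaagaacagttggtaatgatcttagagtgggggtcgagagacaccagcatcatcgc
Tnc, chr4:64087740-64087939: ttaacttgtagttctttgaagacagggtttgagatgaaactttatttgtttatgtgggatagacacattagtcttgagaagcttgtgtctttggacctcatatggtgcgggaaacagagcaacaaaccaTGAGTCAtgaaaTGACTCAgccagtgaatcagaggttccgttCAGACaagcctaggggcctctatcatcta
Gadd45g, chr13:51969383-51969582: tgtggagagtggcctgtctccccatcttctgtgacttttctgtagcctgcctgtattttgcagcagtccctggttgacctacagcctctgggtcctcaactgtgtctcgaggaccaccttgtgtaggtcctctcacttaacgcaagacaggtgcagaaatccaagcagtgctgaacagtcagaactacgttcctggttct

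The TGF-only regions held many JUN reads in the siHK1 library too. Their median was 67 reads in the TGF library (quartiles 56 and 88) and 26 in the siHK1 library (quartiles 18 and 37), or 48.3 reads after scaling. Expressed as a log2 ratio (scaled siHK1 over TGF, 0.5 added to each count), the median was -0.52 (quartiles -0.91 and -0.17), which is 69.8% of the TGF level. In shared regions the median was 96 TGF reads, 52 siHK1 reads and a log2 ratio of 0.01. A missing siHK1 mark thus went together, in the median region, with less than a 2-fold difference in scaled reads. The siHK1 library held fewer reads over the listed regions, and 8832 regions (12.1%) were marked in it alone. The part of read depth in the missing marks was not tested. Without scaling the median log2 ratio was -1.41.

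Of the TGF-only regions, 630 (20.2%) had a log2 ratio of -1 or lower (at least 2-fold lower below), against 338 of the shared regions (1.56%) and 11.4% of all listed JUN regions. The marks were set by the same reads, so these shares describe the choice. At the other end, 452 TGF-only regions (14.5%) had a log2 ratio at or above 0, against 50.5% of shared and 46.8% of all listed regions. None was 2-fold higher, against 0.254% of shared and 7.43% of all listed regions. Of all regions marked in TGF alone, 11.2% reached the limit of 50 TGF reads. At the limit, 139 TGF-only regions with 50 reads had a median of 18 siHK1 reads and a log2 ratio of -0.56, and 137 regions just outside it with 49 reads had a median of 18 and a log2 ratio of -0.53. Just inside it, a region near Mir5103 held 50 TGF and 18 siHK1 reads and one near Gm8883 50 and 24, and just outside it one near Rdh10 held 49 and 10 and one at Eloc 49 and 22.

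**Figure D1:**
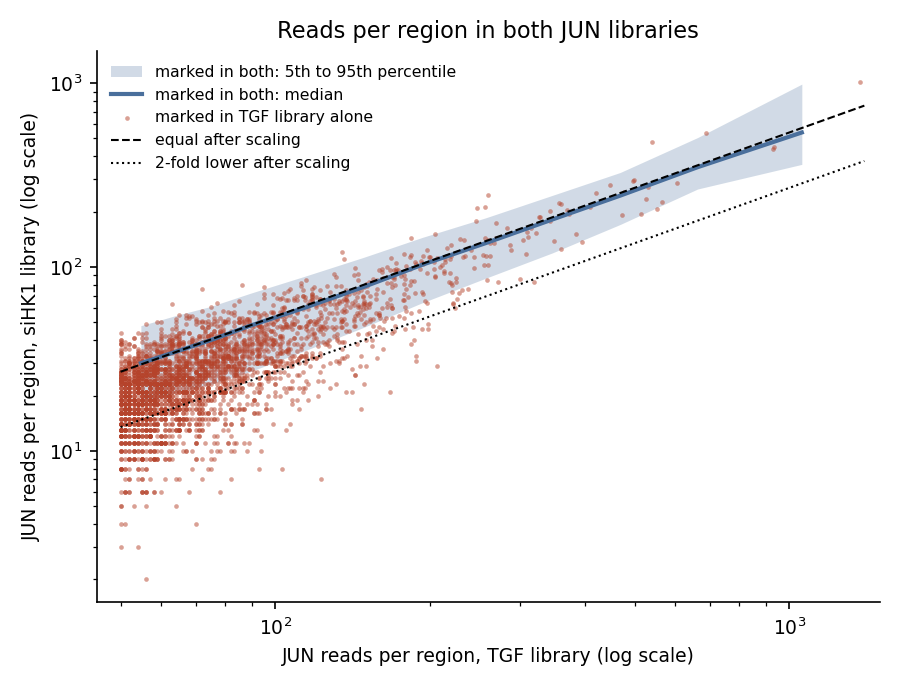
JUN reads per region in the TGF library (x axis, log scale) and the siHK1 library (y axis, log scale) for the 3114 TGF-only regions (points) and for shared regions (line, median; band, 5th to 95th percentile within bins of TGF reads). Most points lie between the line of equal scaled reads (dashed) and the line of 2-fold lower reads (dotted), 630 lie on or below the dotted line and 452 on or above the dashed one.

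**Figure D2:**
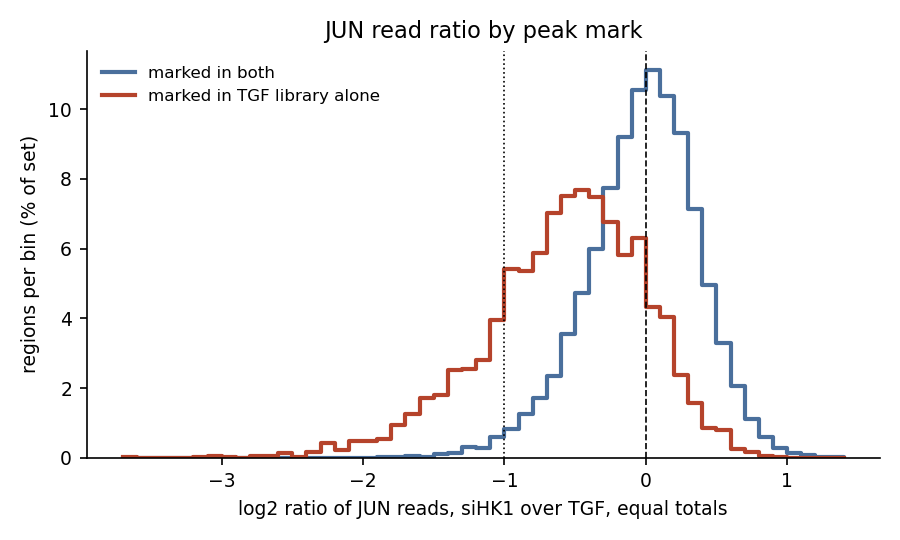
Share of regions (y axis, %) in bins of 0.1 of the log2 ratio of siHK1 over TGF reads after scaling to equal totals (x axis). The TGF-only regions centre on -0.52 and the shared regions on 0.01, with wide overlap between them.

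The regions with the lowest ratio held 2 to 8 siHK1 reads, and their counting error is wide. In the region assigned to 4930459C07Rik, in intron 3 of 5, the reads were 56 in TGF and 2 in siHK1, a scaled ratio of 6.63% of TGF (95% counting interval 0.784 to 25.1%). A region 22846 bp from the start of Smad7, which encodes the inhibitory SMAD that TGF-β itself induces, held 123 TGF and 7 siHK1 reads (10.6%, 4.16 to 22.4%). This was the strongest TGF signal among the 8 lowest ratios. The promoter region of Nox4, which encodes a hydrogen peroxide producing NADPH oxidase of fibroblasts, held 50 TGF and 3 siHK1 reads (11.1%, 2.22 to 34.5%). A region assigned to Pappa, a protease of insulin-like growth factor binding proteins, held 54 and 3 reads (10.3%, 2.06 to 31.8%), and 88.2% of its bases lay in masked repeats. The remaining 4 of the 8 were a region in intron 1 of 2 assigned to 4933427D06Rik (70 and 4 reads), one assigned to Lrrc18 (103 and 8), one in intron 14 of 21 of Magi2 (78 and 6) and one assigned to BC006965 (64 and 5).

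The highest ratios came from regions over 1 kb long. In intron 2 of 2 of Bcl2l1, which encodes an anti-apoptotic protein, 72 TGF and 76 siHK1 reads gave a scaled ratio of 196% (140 to 274%). The regions assigned to Gm12159 (63 and 63 reads), Heatr5a (259 and 245) and 4930520P13Rik (86 and 80) followed. All 4 lacked a siHK1 peak mark although their scaled siHK1 reads exceeded the TGF reads.

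The TGF-only regions differed among themselves in length. The median TGF-only region was 646 bp long (quartiles 434 and 958) and the median shared region 715 bp, but 18.2% of TGF-only regions were 1000 to 1499 bp long and 4.01% longer, against 15.3% and 1.98% of shared regions. In TGF-only regions the median log2 ratio was -0.37 below 300 bp (n = 248), -0.62 at 300 to 499 bp (n = 787), -0.69 at 500 to 699 bp (n = 699) and -0.51 at 700 to 999 bp (n = 687). It was -0.30 at 1000 to 1499 bp (n = 568) and -0.18 at 1500 bp and more (n = 125). The lowest ratios were thus found at middle lengths, and 35.2% of the longest regions were at or above 0. Shared regions lay between -0.03 and 0.03 in all 6 length classes. Long TGF-only regions also held more reads, with a median of 169 TGF reads in the longest class and 58.5 in the shortest, and the part of depth in the length pattern was not tested.

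Among the regions with the most reads several were long. A region 121724 bp from Gadd45g, a growth arrest and DNA damage gene, spanned 2031 bp and held 931 TGF and 440 siHK1 reads (log2 ratio -0.19). The regions assigned to Synb (934 and 449), Ckb (552 and 207), Sprr2a3 (541 and 478), Abhd2 (532 and 273) and Mmp19 (526 and 234) were 1660 to 2027 bp long, with log2 ratios from -0.52 to 0.71. None of these 6 held an AP-1 element in its central 200 bp, although each held 1 to 4 elsewhere in the region. Among the 10 with the most reads were also a 198 bp region assigned to Lrrc4c (1373 and 1013 reads) of which 9.60% was masked repeat, a 794 bp region assigned to Mir101c (689 and 534 reads) with 98.99%, and a region near Vmn1r2 (605 and 288 reads) with 53.5%.

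AP-1 elements were less frequent at the centre of TGF-only regions. The letters TGAGTCA, on either strand, were found in the central 200 bp of 653 TGF-only regions (21.0%, exact 95% interval 19.6 to 22.4%) and of 7230 shared regions (33.4%, 32.8 to 34.1%). Windows of the same size 5 kb to either side held it in 4.14% and 3.73%, and 24.1% of all listed JUN regions held it. With 50 to 99 TGF reads on both sides the shares were 23.2% and 30.5%. The intervals cover counting error over regions only, and regions are not replicates of a condition.

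The AP-1 share was lower in longer regions, from 41.9% of TGF-only regions below 300 bp and 35.5% at 300 to 499 bp to 24.2%, 10.5%, 4.75% and 1.60% in the longer classes. In shared regions it was 37.7%, 40.5%, 41.7%, 31.0%, 17.8% and 8.64%. From 500 bp up each TGF-only share lay below the interval of the shared one. The element was present elsewhere in the region more often: over whole regions 51.2% of TGF-only and 63.1% of shared regions held it, and in 940 TGF-only regions (30.2%) and 6418 shared regions (29.7%) it lay outside the central window alone. Counted per kb, TGF-only regions of 1000 to 1499 bp held 0.644 AP-1 elements over their whole length, 0.255 at their centre and 0.172 in the windows 5 kb away. Shared regions of that length held 0.882, 1.01 and 0.179. At 1500 bp and more the centre held fewer elements per kb than the whole region in both sets (0.0800 and 0.577 in TGF-only, 0.467 and 0.762 in shared regions).

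**Figure D3:**
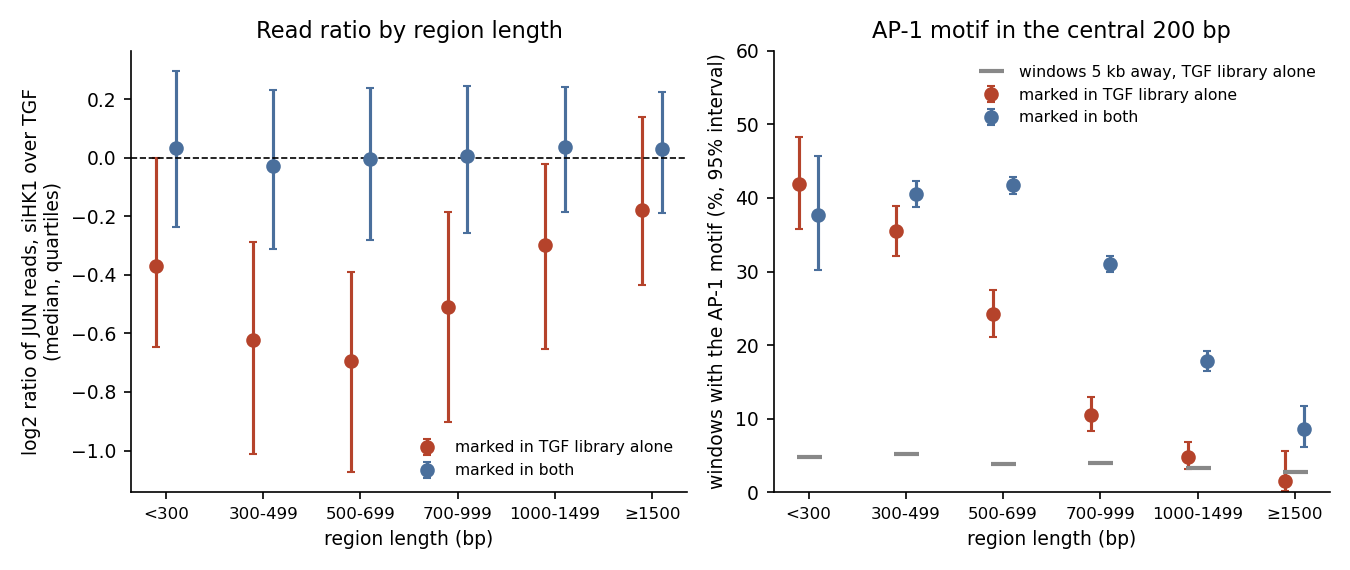
Left, log2 ratio of siHK1 over TGF JUN reads (median, bars from the first to the third quartile) by region length. Right, share of central 200 bp windows with TGAGTCA on either strand (%, bars are exact 95% intervals), with grey dashes for windows 5 kb from TGF-only regions. TGF-only regions of 1000 to 1499 bp and longer have median ratios of -0.30 and -0.18 and hold the element at their centre about as often as the windows 5 kb away.

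The SMAD element was more frequent at TGF-only regions as a whole, but not at equal read ratio. CAGAC, on either strand, was found in the central 200 bp of 1591 TGF-only regions (51.1%, 49.3 to 52.9%) and of 45.8% of shared regions (45.1 to 46.4%). Windows 5 kb away held it in 38.6% and 37.3%, and 44.5% of all listed regions held it. AP-1 and SMAD elements can overlap at their ends, which occurred in 26 TGF-only regions (0.835%).

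Within the TGF-only regions the SMAD element followed the size of the read difference. It was present in 63.3% (59.4 to 67.1%) of the 630 regions at least 2-fold lower, in 55.8% of the 972 with a log2 ratio between -1 and -0.5, in 44.9% of the 1060 between -0.5 and 0 and in 38.5% (34.0 to 43.2%) of the 452 at or above 0, close to the 36.7% of the windows 5 kb away. In shared regions of the same ratio classes the shares were 67.8%, 57.0%, 48.5% and 40.9%, each above that of TGF-only regions. Read by copies, the median log2 ratio was -0.42 with no copy (n = 1523), -0.55 with 1 (n = 1009), -0.75 with 2 (n = 414) and -0.83 with 3 or more (n = 168). The share at least 2-fold lower was 15.2%, 20.1%, 31.6% and 38.7%, in the same order. Across the ratio classes the median GC content lay between 48.0 and 50.5% and the median TGF reads between 64 and 69, while the median length was 595.5, 619, 697.5 and 854.5 bp. Under 1 kb, where the median length was 535 to 566 bp, the SMAD element share was 64.5%, 57.9%, 46.3% and 41.5% in the same order. Outside promoters the shares ran from 64.8% to 37.1% and in promoters from 56.5% to 41.0%.

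This gradient was not particular to regions without the siHK1 peak mark. In shared regions the median log2 ratio was 0.04, -0.01, -0.10 and -0.17 with 0, 1, 2 and 3 or more copies. Some copies lay in simple repeats, as in a TGF-only region at Pdlim5 with 7 copies. Leaving out matches in bases that the reference masks as repeats, the share in TGF-only regions was 57.3%, 50.9%, 40.4% and 34.5% across the ratio classes, and the median log2 ratio was -0.44, -0.57, -0.75 and -0.83 across the copy classes.

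In TGF-only regions both elements together went with a lower median ratio than either alone. The median log2 ratio was -0.68 in 390 TGF-only regions with AP-1 and SMAD elements, -0.48 in 263 with AP-1 alone, -0.61 in 1201 with SMAD alone and -0.40 in 1260 with neither. The shares at least 2-fold lower with both (28.2%, 23.8 to 32.95%) and with SMAD alone (24.1%, 21.7 to 26.6%) had overlapping intervals. In shared regions the medians were -0.049, 0.054, -0.040 and 0.039 in the same order, and the 2-fold lower shares were 1.97% with both and 2.50% with SMAD alone. AP-1 itself was present in 25.9% of the regions at least 2-fold lower and in 15.3% of those at or above 0. Under 1 kb these shares were 27.8% (24.2 to 31.7%) and 22.2% (17.4 to 27.6%), with overlapping intervals, and in shared regions of any length 28.1% and 33.2%, the other way round. In TGF-only regions of any length RUNX (TGTGGTT) ran from 7.94% to 4.87% between those classes. TEAD (GGAATG) ran from 13.0% to 12.2% and NFAT (TGGAAA) from 20.6% to 17.7%, while SP/KLF (GGGCGG) ran from 5.08% up to 12.4% and ETS (CCGGAA) from 2.54% up to 4.43%. The intervals of both classes overlapped for all of these but SP/KLF (3.5 to 7.1% and 9.5 to 15.79%). In shared regions NFAT (16.27% and 18.73%) and TEAD (15.98% and 16.58%) ran the other way, with overlapping intervals. RUNX (5.325% and 4.54%), SP/KLF (4.44% and 12.41%) and ETS (2.07% and 5.26%) ran the same way there. CRE (TGACGTCA) was present in 16 TGF-only regions (0.514%), against 0.879% of shared and 0.645% of all listed regions. Overlaps among these further elements were not counted. A match is a description of the letters and does not show that a factor was bound.

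**Figure D4:**
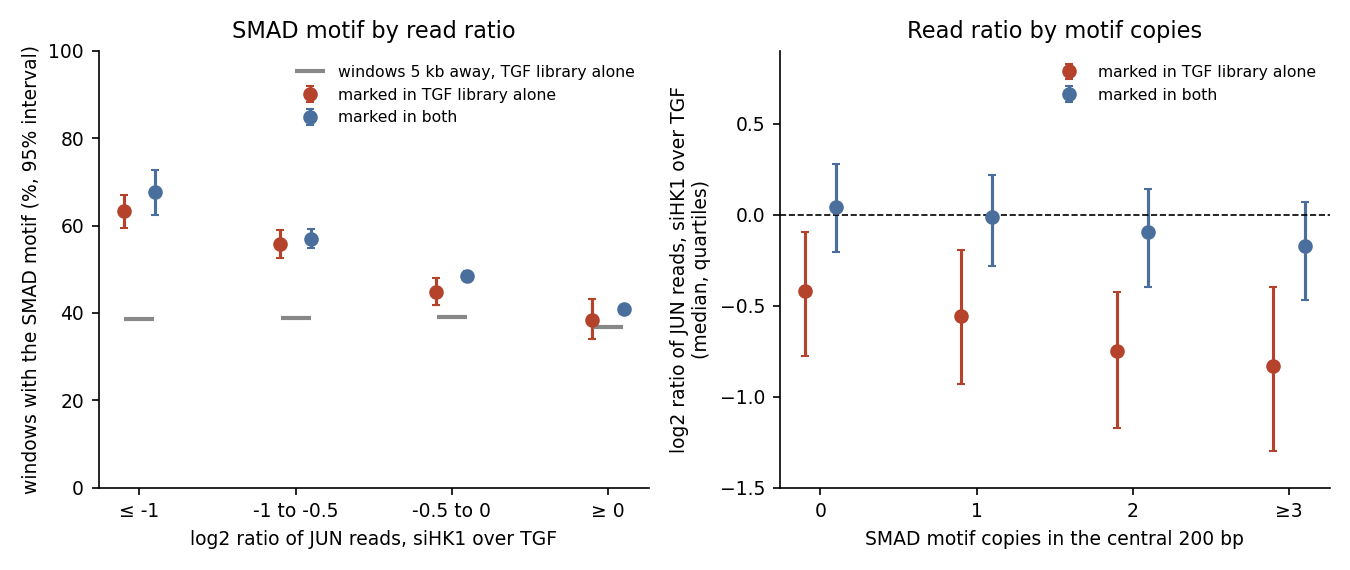
Left, share of central 200 bp windows with CAGAC on either strand (%, bars are exact 95% intervals) by the log2 ratio of siHK1 over TGF JUN reads, with grey dashes for windows 5 kb from TGF-only regions. Right, the same log2 ratio (median, bars from the first to the third quartile) by the number of CAGAC copies. The share is 63.3% in the lowest and 38.5% in the highest ratio class of TGF-only regions, and the median ratio is lower in each class with more copies in both sets.

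Position in the genome also varied with the ratio. Promoters, as annotated by the authors within 3 kb of a start site, made up 865 TGF-only regions (27.8%, 26.2 to 29.4%) and 25.3% of shared regions (24.7 to 25.9%). With 50 to 99 TGF reads on both sides the shares were 26.8% in each set. Introns held 33.9% of TGF-only regions and intergenic sequence 31.8%, with 34.7% and 33.4% for shared regions. The promoter share was 17.1% of the TGF-only regions at least 2-fold lower and 35.6% of those at or above 0, and in shared regions 15.4% and 26.9%, in the same direction. Under 1 kb these shares were 16.8% and 30.2% in TGF-only regions and 15.3% and 24.2% in shared regions. Of all listed JUN regions 25.6% were promoters. Promoter regions had a median log2 ratio of -0.41, intronic regions -0.60 and intergenic regions -0.54. TGF-only regions lay closer to regions marked in both libraries, the nearest of which was a median of 6.26 kb away and within 1 kb for 13.4%, against 10.0 kb and 7.52% for shared regions. These distances were not computed over all listed regions.

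The TGF-only regions were assigned to 2388 genes, of which 1890 had 1, 348 had 2 and 150 had 3 or more. Of these genes 1861 (77.9%) also had a shared region, a share not computed for all genes with a listed JUN region. Among the lists of genes, the TGF-β pathway held 33 of the TGF-only regions (1.06%, exact interval 0.731 to 1.49%), at 20 of its 38 genes, against 0.629% of shared regions and 0.506% of all listed regions. Their median log2 ratio was -0.48, with 8 at least 2-fold lower and 3 at or above 0, beside 20.2% and 14.5% of all TGF-only regions. Matrix genes held 35 (1.12%; shared 0.805%, all 0.644%) with a median of -0.54, and contractile and cytoskeletal genes 28 (0.899%; shared 0.587%, all 0.466%) with a median of -0.72. Over all 3114 regions the median was -0.52. These shares were not corrected for gene length.

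Several components and targets of TGF-β signalling had TGF-only regions. Pmepa1, a TGF-β induced inhibitor of SMAD activation, had 4, with 109 and 49, 52 and 8, 52 and 14, and 50 and 15 reads. Both latent TGF-β binding proteins with a region at least 2-fold lower had it away from the promoter, Ltbp4 with 83 and 11 reads and Ltbp2 with 80 and 14.

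Receptors and SMADs also had TGF-only regions. The promoter region of Tgfbr1, the type 1 receptor, held 220 TGF and 82 siHK1 reads (log2 ratio -0.53) and that of Tgfbr2, the type 2 receptor, 169 and 78 (-0.22). Tgfbr3, the co-receptor betaglycan, had a region in intron 15 of 16 with 73 and 26 reads (-0.58). Smad3 had 1 TGF-only region beside 14 shared ones, with 90 and 38 reads (-0.34). Smad6, another inhibitory SMAD, had 3 with log2 ratios of 0.14, -0.40 and -0.83, the last of which carried 6 SMAD elements. Ski, a co-repressor of SMAD proteins, had 2 in intron 1 of 6, with 149 and 62 reads and with 69 and 16. The second region of Smad7, in an intron, held 73 and 44 reads (0.17, or 112% of TGF). Its counting interval of 75.2 to 165% includes equal scaled reads.

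Among matrix genes Col5a1, a chain of type V collagen, had 6 TGF-only regions beside 11 shared ones. They ranged from 51 TGF and 4 siHK1 reads 15046 bp upstream (log2 ratio -2.62) to 66 and 45 in intron 1 of 65 (0.34), with 108 and 31 at the promoter (-0.89). The type I collagen genes Col1a1 and Col1a2 had 3. Col1a1 had 56 and 36 reads 18180 bp upstream (0.26), and Col1a2 had 63 and 12 at 1 annotated start (-1.45) and 126 and 79 at 566 bp from another (0.22). Col3a1, for type III collagen, had 3 with 87 and 38, 86 and 24, and 59 and 22 reads. Col6a3 had 165 and 61 reads (-0.54) and Tnc, the matricellular tenascin C, 131 and 79 (0.17), with 2 AP-1 elements at its centre. The collagen regions thus lay between -2.62 and 0.34.

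Contractile and cytoskeletal genes had 7 regions at least 2-fold lower among 28, beside 20.2% of all TGF-only regions. Flnc, which encodes the actin cross-linker filamin C, had 3 within about 5 kb of its start, with 231 and 75, 221 and 73, and 92 and 27 reads, at log2 ratios from -0.86 to -0.70. Itga11, a collagen-binding integrin of fibroblasts, had 2, both upstream, with 128 and 22 and with 93 and 21 reads (-1.62 and -1.23). Itga5, the fibronectin receptor subunit, had 3, with 135 and 32 reads at the promoter (-1.17), 139 and 45, and 99 and 27. Actn4 (52 and 6), Pdlim5 (50 and 6), Vcl (50 and 8) and Palld (54 and 11), which act at actin filaments and adhesions, each had 1 at least 2-fold lower. The highest log2 ratios at Pdlim5, Vcl and Palld were -0.715, -0.69 and -0.47. The 2 regions of the list at or above 0 were at Cald1 (0.28) and Actn1 (0.20). Myh9, the heavy chain of non-muscle myosin, had 2 at -0.89 and -0.47.

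**Figure D5:**
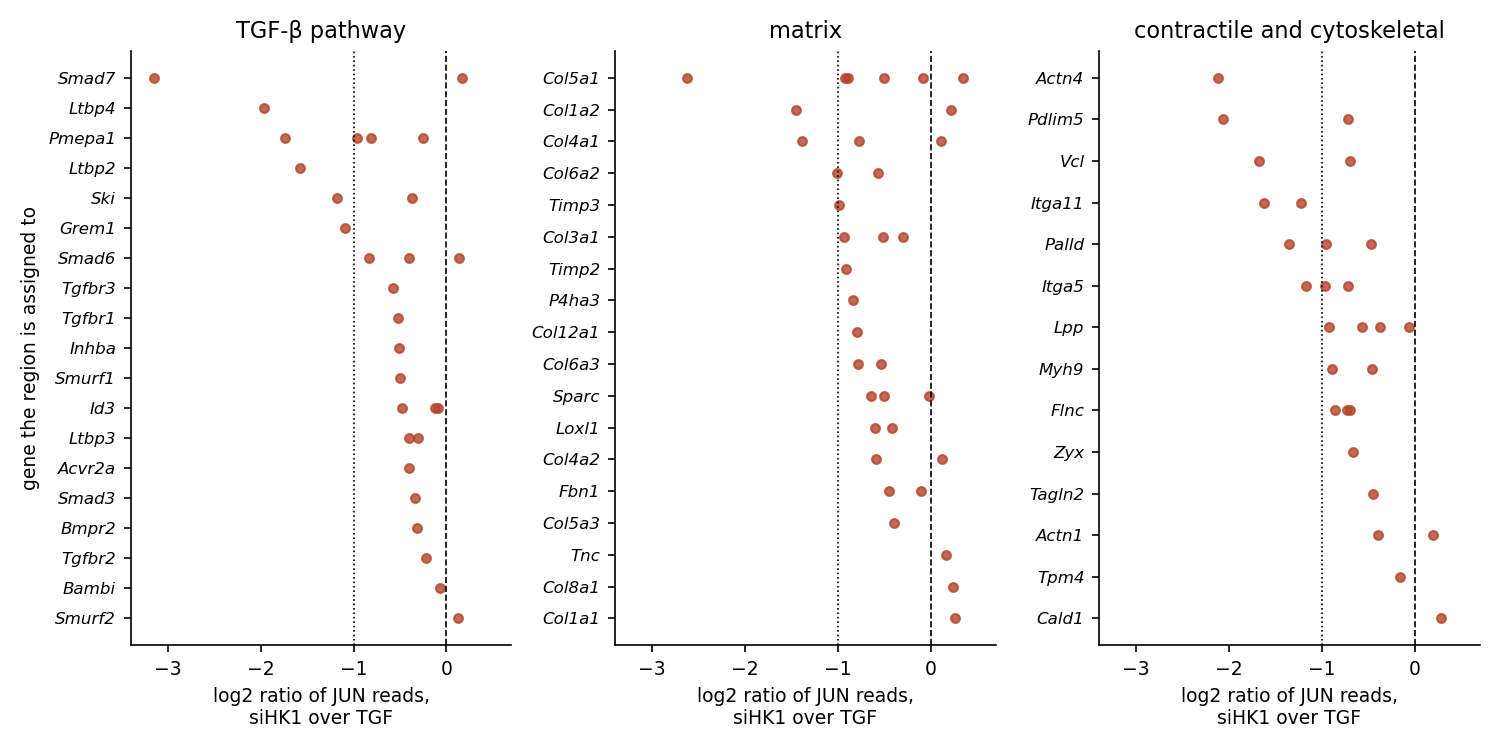
Log2 ratio of siHK1 over TGF JUN reads for each TGF-only region (points) by the gene it is assigned to, for the TGF-β pathway, matrix, and contractile and cytoskeletal lists. The dashed line marks equal scaled reads and the dotted line 2-fold lower reads, which 4 of 35 matrix and 7 of 28 contractile and cytoskeletal regions reach, beside 20.2% of all TGF-only regions. The regions of 1 TGF-β pathway gene are not drawn.

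Genes of AP-1 and its partners had 9 TGF-only regions, none at least 2-fold lower beside 20.2% of all TGF-only regions (median -0.40). They were 0.289% of TGF-only regions against 0.194% of shared and 0.151% of all listed regions. Jun itself had 3, with 70 and 33 reads 971 bp upstream, 66 and 26, and 54 and 22. The promoter region of Mafk, a small MAF partner, held 110 and 56 reads (-0.08), and Fosb (101 and 33) and Maf (98 and 32) had 1 each. Genes of the Hippo pathway had 6 (0.193%; shared 0.291%, all 0.245%; median -0.38), among them the transcriptional co-activator Wwtr1 with 70 and 24 reads, its TEAD competitor Vgll4 with 124 and 47, the tissue factor gene F3 with 97 and 32 and Amotl1 with 69 and 39. For growth factor receptors and MAPK feedback there were 9 (0.289%; shared 0.407%, all 0.326%; median -0.50). Fgfr1 held 373 and 194 reads (-0.05), Pdgfrb 143 and 54 (-0.50), and the phosphatase and inhibitor genes Dusp10 54 and 17 and Spred2 63 and 10 (-1.70). Glycolysis genes had 4 (0.129%; shared 0.194%, all 0.117%), at Pkm (142 and 52 reads), Hk2 (115 and 54), Gpi1 (70 and 27) and Pfkfb4 (57 and 14), with log2 ratios of -0.55, -0.19, -0.47 and -1.10.

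The genes with the most TGF-only regions were Zmiz1, a co-activator of the PIAS family, with 10, Dlc1, a GTPase activating protein, with 8, and Cdc5l, Col5a1 and Tmx1 with 6 each. At Zmiz1 the reads ran from 61 to 205 in TGF and from 25 to 88 in siHK1, and all 10 had a ratio below 0 (-1.17 to -0.20). At Dlc1 they ran from 54 to 169 and from 17 to 60, with 1 of 8 above 0 (0.22). The 6 regions assigned to Cdc5l, a splicing factor, lay 102443 to 243405 bp from its start and had log2 ratios from -2.00 to -0.20, and those of Tmx1, a thioredoxin of the endoplasmic reticulum, from -0.78 to 0.36. Shared regions of the same genes had medians of -0.06 at Zmiz1, 0.12 at Dlc1, -0.52 at Cdc5l, -0.22 at Col5a1 and 0.10 at Tmx1. The regions of Cdc5l thus had a lower ratio whether or not they carried the siHK1 mark.

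The other antibodies, which the rule did not use, were read at the same places. SMAD3 regions overlapped 780 TGF-only regions (25.05%, 23.5 to 26.6%) and 31.4% of shared regions (30.8 to 32.0%), NFATC2 regions 17.9% and 26.3%, and H3K9lc regions 5.97% and 8.59%. Of all listed JUN regions 18.1%, 15.4% and 6.08% overlapped, in that order. With 50 to 99 TGF JUN reads on both sides the SMAD3 shares were 21.2% and 21.9%, within each other's intervals, and the NFATC2 shares 15.2% and 18.95%. Of the 814 SMAD3 regions at TGF-only regions 560 (68.8%) carried a SMAD3 mark in the siHK1 library alone, against 67.0% at shared regions and 47.7% of all listed SMAD3 regions. The SMAD3 counts behind this were low, with medians of 4 TGF and 7 siHK1 reads.

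With SMAD3 totals made equal, the median log2 ratio per SMAD3 region (siHK1 over TGF) was 1.23 at TGF-only regions, 1.12 at shared regions and 0.01 over all listed SMAD3 regions. At SMAD3 regions that overlap JUN regions at least 2-fold lower, 668 TGF and 1098 siHK1 SMAD3 reads were counted in TGF-only regions (log2 of the scaled sums 1.21) and 503 and 963 in shared regions (1.43). The median SMAD3 log2 ratio was also positive elsewhere, at 0.86 at TGF-only and 0.98 at shared regions with a JUN ratio at or above 0, and 0.96 at all listed JUN regions. At the TGF-only regions with a JUN ratio at or above 0 the log2 ratio of the summed SMAD3 reads was -0.35. Summed over all TGF-only regions the SMAD3 reads were 16090 and 12101 (exact Poisson intervals 15840 to 16340 and 11890 to 12320), a log2 ratio of 0.08 that rested on repeat regions. A pair assigned to Mir101c held 3406 and 1509, and 1426 and 634 SMAD3 reads, and one near Vmn1r2 held 910 and 409. Leaving out regions with 50% or more masked repeat, the log2 ratio of the sums was 0.80.

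NFATC2 reads summed to 17169 and 9555 (log2 ratio -0.15) and H3K9lc reads to 38809 and 22835 (0.05), with medians per region of 0.27 and -0.11. At shared regions these medians were 0.05 and -0.30, and over all listed regions of each antibody 0.41 and -0.08. For NFATC2 the regions with the most TGF reads were one assigned to Mir101c (2921 and 1382), the one assigned to Lrrc4c (2154 and 1382) and the second of Mir101c (1238 and 652). For H3K9lc they were the region near Vmn1r2 (4338 and 2487), one near Pisd-ps2 (2790 and 1497) and the Mir101c region (2424 and 1671). These places were among the strongest for several antibodies at once. The region assigned to Lrrc4c has under 50% masked repeat and is still in the sums that leave out repeat regions. The part of these places in the results was not tested further.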

How the data were processed

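CUT&Tag libraries came from cultured fibroblasts of mouse heart. For each region the authors deposited raw read counts per library and a mark of 0 or 1 for a called peak; how the mark was set is not given in the sources used here, and 83 listed JUN regions carry 0 in both libraries, so a mark of 0 may not be the plain absence of a peak. Deposited fold changes, normalized values and p-values were not used. The methods name Bowtie2, MACS2 and GRCm39, while the submitters' processing notes name BWA 0.7.12 and mm10. Of 30374 transcripts named with the JUN regions 30096 were found in GENCODE vM21, all with its coordinates, so positions are on GRCm38 (mm10), counted from 1 as deposited (a region's start may be off by 1 bp, since the files do not say from where it is counted).

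Counts were scaled to equal reads over all listed regions, and the log2 ratio used a pseudocount of 0.5. Shares carry exact (Clopper-Pearson) and sums exact Poisson 95% intervals for counting error alone, because reads copied by PCR do not each stand for a molecule. Motifs were searched on both strands in the central 200 bp. An overlap needed 1 shared bp. No test between conditions was made. Alternatives changed the read limit, the scaling, the motif window, the overlap and the regions kept. Scripts (Python 3.11.15, scipy 1.17.1) were tested on simulated data. The regions and gene lists were chosen with earlier results of these data known. Named regions were those with the most TGF reads (10), the 8 lowest and 4 highest ratios, up to 4 genes per list (further list members were named after their values were seen), the genes with the most regions, the 3 with the most reads of each other antibody, and 2 on each side of the read limit. Some items that meet these rules are not reported here.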

Additional observations from a re-analysis of the deposited data

How the results depend on the processing

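No paired analysis was possible because a single library was made per antibody and treatment, so there was also no replicate to leave out. Of the values recomputed under alternatives, 27 changed little (shares, medians and sums within the 95% interval of the main value, numbers of regions within 1.5 times), and the others are given here. The JUN ratio of shared regions, 0.0052 in the main analysis, was negative under 4 alternatives. Values are given for TGF-only and then shared regions, and the cause of a change was not tested unless named. Restricting the regions to those under 1 kb or under 50% repeat, and counting SMAD elements outside masked repeats, were chosen after seeing the data.

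With a limit of 30 TGF reads there were 8451 TGF-only regions, with median lengths of 490 and 655 bp and a log2 JUN ratio of 0.036 in shared regions. With a limit of 100 there were 579, with ratios of -0.42 and -0.011, promoter shares of 31.95% and 23.64% and lengths of 1117 and 822 bp. Between 50 and 99 reads the ratios were -0.54 and 0.023, the lengths 584 and 635 bp, the AP-1 shares 23.23% and 30.46% and the overlaps 21.22% and 21.87% (SMAD3) and 15.19% and 18.95% (NFATC2), and 26.82% and 26.77% were promoters, and in shared regions 44.64% held the SMAD element and 6.42% overlapped H3K9lc. Under 1 kb the ratios were -0.59 and -0.0030, the promoter shares 24.74% and 23.0%, the AP-1 shares 25.77% and 36.92% and the SMAD element shares 53.9% and 46.48%.

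Without scaling, which leaves the difference in total reads in place, the JUN ratios were -1.41 and -0.89, and the log2 ratios of summed reads -0.41 and -0.34 for SMAD3 (changed sign), -0.85 and -0.77 for NFATC2 and -0.77 and -0.64 for H3K9lc (changed sign). Scaled to regions marked in both libraries, the JUN ratios were -0.58 and -0.054, and the sums 0.16 and 0.23 for SMAD3, -0.064 and 0.011 for NFATC2 (shared changed sign) and -0.066 and 0.063 for H3K9lc (TGF-only changed sign). Under 50% repeat the sums were 0.80 and 0.68 for SMAD3, 0.077 and 0.044 for NFATC2 and -0.10 and -0.045 for H3K9lc, the last 2 antibodies with changed sign in both sets. The sums of none of the 3 antibodies kept one direction under all these settings.

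Promoters counted within 1 kb of a start site were 17.66% and 16.68%. The AP-1 shares were 10.21% and 18.59% in the central 100 bp and 51.16% and 63.13% over whole regions. The SMAD element shares were 46.24% and 41.91% outside masked repeats. An overlap of at least 50% of the shorter region gave 22.9% and 29.82% for SMAD3, 16.15% and 24.86% for NFATC2 and, in shared regions, 8.20% for H3K9lc. Regions of the other antibodies called in TGF with at least 5 reads gave 6.74% and 9.41%, 8.48% and 15.46%, and 4.21% and 7.29%, in the same order. The AP-1 share was lower in TGF-only than in shared regions, and the SMAD element share higher, under each alternative for which both were computed. Library depth is unknown, and a region with 2 to 8 siHK1 reads has a ratio known to a few fold at best.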
